A study of Mus musculus with 2 samples.

Results

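Laminins are the cross-shaped glycoproteins of basement membranes, and integrins are the paired α and β receptors through which cells hold on to laminins, collagens, fibronectin and other ligands. The genes described here are all mouse genes whose symbol is Lama, Lamb or Lamc with a number, Itga or Itgb with a number or a single letter, or Itga2b, and which have at least 1 protein-coding transcript in the annotation. The rule gave 37 genes of the 21901 genes with a coding transcript and of the 55450 genes quantified: 11 laminin chains (5 α, 3 β and 3 γ) and 26 integrin subunits (18 α and 8 β). It used names only and no measured value.

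The study sequenced total RNA, depleted of ribosomal RNA, from the hearts of 2 adult female B6CASTF1/J mice aged 8 to 10 months, which are F1 hybrids between the C57BL/6J and CAST/EiJ strains. Each directional library started from 300 ng of RNA to which ERCC spike-ins were added, and replicates 1 and 2 are the libraries of the mice numbered 1 and 3. The labels name no treatment, mutation or other tissue, so there was 1 group and the comparisons possible were between genes, between the 2 animals and between quantifications of the same reads. The smallest p that an exact sign-flip test can give with 2 animals is 0.5, so no p-value is given. The labels give the libraries separate animal numbers and tissue samples but the same donor entry. They are treated here as 2 animals, and every ± below is the SD over the pair.

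A laminin is a trimer of an α, a β and a γ chain: the α chain carries the globular domains that integrins and dystroglycan bind, and the β and γ chains join it in a coiled coil. Around heart muscle cells the best known form is the merosin trimer with the α2 chain, while α4 and α5 are the α chains of blood vessel basement membranes. An integrin is a dimer of an α and a β subunit, and its short cytoplasmic tails reach talin, kindlin and other adaptors of the actin cytoskeleton. In muscle the laminin receptor α7β1 works beside the dystroglycan complex.

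The libraries held 42223411 and 40553237 expected counts, of which the 37 genes took 79388.2 and 70140.1. Their summed level was 602.1 and 522.86 TPM, where TPM is the deposited abundance, scaled per transcript length and per library. The tissue's muscle markers were at the levels of heart muscle, with Myh6 at 8814.12 and 7761.02 TPM and all 6 listed cardiomyocyte markers above 1 TPM. Of the other listed markers, 6 of 6 endothelial, 6 of 6 fibroblast, 5 of 5 smooth muscle, 5 of 5 pericyte, 4 of 9 macrophage and leukocyte, 2 of 7 platelet, 4 of 10 epithelial and mesothelial and 2 of 6 Schwann cell genes reached 1 TPM in both hearts. Each level therefore sums over the cell types of the whole heart, and more cells of a type cannot be told apart from more RNA per cell.

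With expression taken as at least 1 TPM in each of the hearts, 22 of the 37 members were expressed, against 48.9% of all genes with a coding transcript. These were 8 of the 11 laminin chains and 14 of the 26 integrin subunits. The median member stood at 1.525 TPM and 14 members averaged 10 TPM or more. Most of the total therefore lay in a minority of the genes, led by Lamb2, Itgb1 and Itga7, which stood at the 98.1, 97.7 and 96.1 percentiles of the coding genes.

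**Figure D1:**
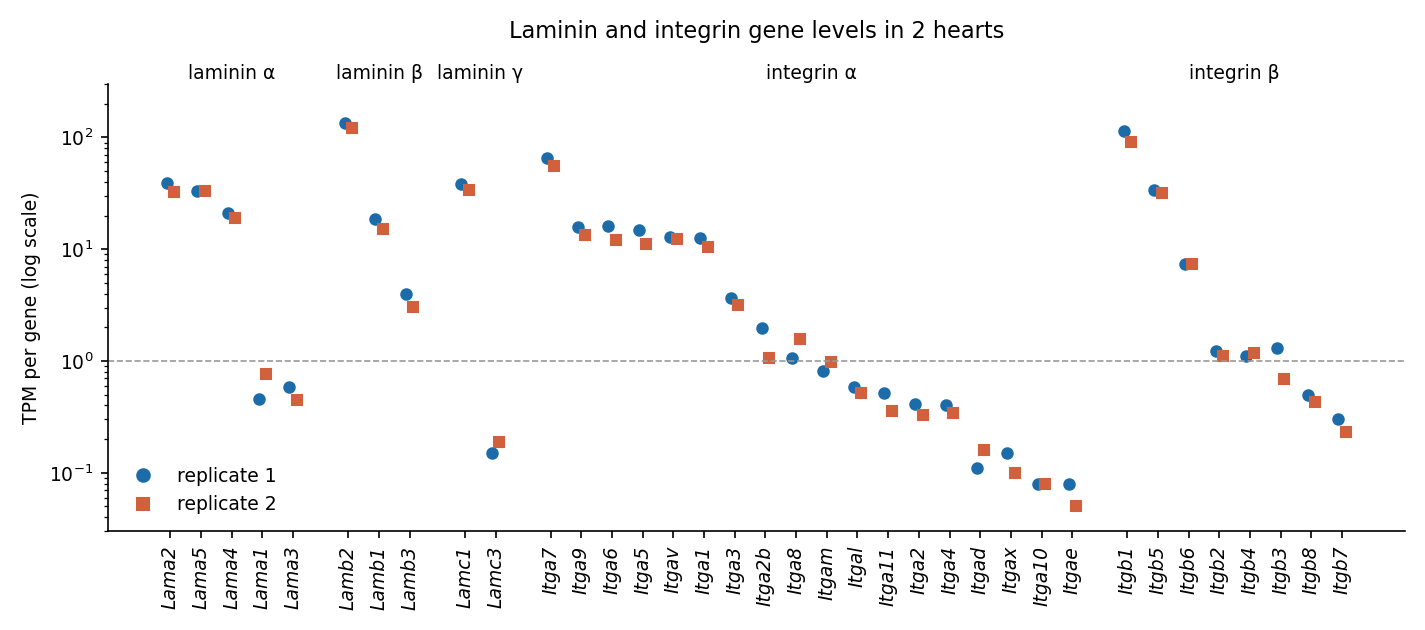
TPM of 36 of the 37 genes in replicate 1 (circles) and replicate 2 (squares) on a log axis, ordered by mean within each chain type. The dashed line marks 1 TPM: 21 of the genes drawn lie on or above it in both hearts, and within each chain type the levels run from above 30 TPM to under 4 TPM.

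Among laminin α chains, Lama2, Lama5 and Lama4 made up nearly all of the summed level of 90.5 ± 6.46 TPM. Lama2 (chr10:26980036-27619758, minus strand), the merosin chain whose loss causes congenital muscular dystrophy, was at 39.48 TPM in replicate 1 and 32.48 TPM in replicate 2. Lama5 (chr2:180176373-180225859, minus strand), a long vessel and epithelial α chain, was at 33.23 and 33.18 TPM. Lama4 (chr10:38965515-39110188, plus strand), the vessel and muscle chain with a short amino-terminal arm, was at 21.29 and 19.03 TPM. The ranges of Lama2 and Lama5 overlapped, and which of them was higher differed between the hearts: the log2 ratio of Lama2 to Lama5 was 0.25 in replicate 1 and -0.03 in replicate 2. Lama4 lay below both in each heart, 1.78-fold under Lama2. As shares of α chain TPM these were 39.7 ± 2.64% for Lama2, 36.8 ± 2.59% for Lama5 and 22.3 ± 0.18% for Lama4.

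The remaining α chains were near the bottom of the range. Lama1, the chain of the early embryo, was at 0.46 and 0.77 TPM, and Lama3, the α chain of epidermal laminin, at 0.59 and 0.45 TPM. Their ranges overlapped, so the data do not order them.

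Among β chains, Lamb2 was the highest laminin gene of the heart. Lamb2 (chr9:108479736-108490530, plus strand), the β chain concentrated at neuromuscular junctions, kidney filter and vessel walls, was at 134.49 and 122.50 TPM. Lamb1 (chr12:31265234-31329644, plus strand), the widely expressed β chain, was at 18.80 and 15.22 TPM. Lamb2 was thus 7.55-fold above Lamb1, with a log2 ratio of 2.92 ± 0.12, and held 86.3 ± 1.06% of β chain TPM. The ratio was 4.40-fold when transcripts under 1000 bases were left out, as described further below. Lamb3, the β chain of epidermal laminin, was at 3.95 and 3.04 TPM. It shares its strand with an overlapping gene model, Gm37691 (1.69 and 1.68 TPM), so reads there could belong to either, and G0s2 (24.48 and 26.9 TPM) and Hsd11b1 (3.47 and 2.86 TPM) lie within it on the opposite strand.

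The γ chains were led by Lamc1. Lamc1 (chr1:153218922-153332786, minus strand), the γ chain of most laminins, was at 38.34 and 33.53 TPM and held 90.1 ± 2.99% of γ chain TPM. Lamc3, a γ chain known from nerve, retina and skin, was at 0.15 and 0.19 TPM, and its range lay far below that of Lamc1.

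Of 12 laminin trimers in a textbook list, 6 had all 3 chains expressed in both hearts: 211, 221, 411, 421, 511 and 521, named by their α, β and γ numbers. All of them join Lama2, Lama4 or Lama5 to Lamb1 or Lamb2 and to Lamc1. Over the trimers with Lamb1 the lowest chain in the gene table was Lamb1 itself, at 17.0 TPM on average. For 411 this moved with the setting. Over transcripts of 1000 bases or more Lama4 averaged 15.3 TPM and Lamb1 16.4 TPM, and over protein-coding transcripts 14.1 and 16.2 TPM. Over the trimers with Lamb2 the lowest chain was Lama4 at 20.2 TPM for 421 and Lama5 at 33.2 TPM for 521. For 221 it was Lamc1 in replicate 1 (38.34 TPM, Lama2 39.48) and Lama2 in replicate 2 (32.48 TPM, Lamc1 33.53). The ranges of Lama2 and Lamc1 overlapped, so the data do not order them. Summed over genes, β chains stood at 149 ± 11.7 TPM, and α chains at 90.5 ± 6.46 TPM. This gap moved with the setting. The sums were 91.5 and 65.5 TPM over transcripts of 1000 bases or more, and 17562 and 17355.5 in expected counts. RNA levels do not show which trimers were assembled.

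Integrin β subunits were led by Itgb1, the shared partner of most laminin, collagen and fibronectin receptors. Itgb1 (chr8:128685654-128733200, plus strand) was at 115.22 and 91.50 TPM and made up 69.9 ± 2.47% of β subunit TPM. Itgb5, the β subunit of the vitronectin receptor αvβ5, was at 33.70 and 31.70 TPM, 3.13-fold lower. Itgb6, known mainly as the β subunit of the epithelial activator of TGF-β, was at 7.44 and 7.40 TPM, resting on 906 and 950 expected counts. These 3 genes were apart from each other and from the rest in both hearts.

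The epithelial markers gave a mixed setting for Itgb6. Epcam and Krt5 were at 0 in both libraries and Cdh1 was at 0.02 and 0.05 TPM, whereas Upk3b, a mesothelial gene, was at 4.88 and 6.81 TPM and Msln at 3.61 and 5.42 TPM. The summed level of the 10 epithelial and mesothelial markers was 13.4 and 17.3 TPM. Their part in the level of Itgb6 was not tested. The log2 ratio of its α partner Itgav to Itgb6 was 0.76 in the gene table, 0.24 in the FASTQ-derived table and -0.29 over transcripts of 1000 bases or more, so their order is not settled.

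The lower β subunits were Itgb2, the leukocyte subunit, at 1.22 and 1.10 TPM, Itgb4, the hemidesmosome subunit, at 1.11 and 1.19 TPM, and Itgb3, the subunit of platelets and vessel cells, at 1.31 and 0.69 TPM. These 3 overlapped in range. Itgb8 was at 0.50 and 0.43 TPM and Itgb7, the gut-homing lymphocyte subunit, at 0.30 and 0.23 TPM.

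Itga7 led the α subunits by a wide margin in the gene table. Itga7 (chr10:128933818-128958282, plus strand), the laminin receptor subunit of muscle, was at 65.65 and 55.52 TPM and held 44.7 ± 0.21% of α subunit TPM. In that table its level was closest to Itgb1 among the α partners of Itgb1: Itgb1 was 1.70-fold higher, with log2 ratios of Itga7 to Itgb1 of -0.81 and -0.72. The next α partners by mean in that table, Itga9 and Itga6, overlapped in range and were 7.05-fold and 7.25-fold below Itgb1.

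After Itga7 came 5 α subunits between 10 and 17 TPM whose order was settled only in part. Itga9, a receptor subunit for tenascin and EMILIN, was at 15.65 and 13.40 TPM, and Itga6, a laminin subunit of vessels and epithelia, was at 16.28 and 12.16 TPM. Itga5, the fibronectin receptor subunit, was at 14.79 and 11.18 TPM, and Itgav, the α subunit shared by several RGD-binding receptors, was at 12.76 and 12.43 TPM. Itga1, a collagen and laminin receptor subunit, was at 12.48 and 10.47 TPM. Each of the 5 overlapped its neighbours in range, and Itga9 was apart from Itgav and Itga1. Itga1 also shares strand and position with Pelo, which lies within it at 5.19 and 4.82 TPM, and with the model Gm49395 at 4.76 and 3.01 TPM, so its level is less certain.

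Below them, Itga3, a laminin subunit of epithelia, was at 3.63 and 3.15 TPM, apart from both neighbours. Itga2b, the platelet subunit, was at 1.99 and 1.06 TPM and Itga8, an RGD-binding subunit of mesenchymal and smooth muscle cells, at 1.07 and 1.57 TPM. These were the last α subunits expressed in both hearts. Grouped by ligand, the laminin-binding subunits Itga3, Itga6 and Itga7 held 57.6 ± 0.59% of α subunit TPM. Itga1 was counted with the collagen-binding subunits and is not in this share. The α subunits summed to 136 ± 16.7 TPM and the β subunits to 148 ± 18.8 TPM.

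The remaining 9 α subunits were under 1 TPM in both hearts. Of the leukocyte subunits, Itgam was at 0.82 and 0.98 TPM, Itgal at 0.58 and 0.52 TPM, Itgax at 0.15 and 0.10 TPM and Itgae at 0.08 and 0.05 TPM. Itgad stood at 0.11 and 0.16 TPM on only 2 and 4.41 expected counts. It lies across from Cox6a2, a muscle cytochrome oxidase gene at 984.9 and 1078.63 TPM on the opposite strand, and whether the counting used strand is not stated in these sources. The collagen-binding subunits Itga2 (0.41 and 0.33 TPM), Itga11 (0.52 and 0.36 TPM) and Itga10 (0.08 and 0.08 TPM) were as low. Itga4, the lymphocyte subunit that binds VCAM, was at 0.40 and 0.34 TPM. General leukocyte markers were likewise low, with Ptprc at 1.19 and 0.97 TPM, but Lyz2 was at 34.43 and 26.91 TPM and Csf1r at 9.38 and 8.63 TPM.

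Itga2 and Itga1 lie 20995 bases apart on chromosome 13, and the pair stood at 0.37 and 11.5 TPM on average.

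Of 24 textbook integrin pairs, 11 had both subunits expressed in both hearts. Of these 11, 7 paired Itgb1 with Itga1, Itga3, Itga5, Itga6, Itga7, Itga8 or Itga9, and the others were Itgav with Itgb1, Itgb5 or Itgb6 and Itga6 with Itgb4. The pair with Itga8 depends on short transcripts, since Itga8 was at 0.97 TPM in replicate 2 over transcripts of 1000 bases or more. Itga6 was 11.3-fold above Itgb4, the partner it has in hemidesmosomes, and 7.25-fold below Itgb1. These ratios moved with the table: the log2 ratio of Itga6 to Itgb4 was 3.50 in the gene table and 4.97 in the FASTQ-derived table, and that of Itga6 to Itgb1 was -2.86 and -1.22. Itgav was 2.58-fold below Itgb5, a log2 ratio of -1.37, which became -2.44 over transcripts of 1000 bases or more. For the platelet pair the log2 ratio of Itga2b to Itgb3 was 0.57 and 0.55 in the gene table and 0.25 and 0.45 in the FASTQ-derived table. Over transcripts of 1000 bases or more it was 0.10 and -0.40, so the data do not settle which of them was higher.

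The exons that decide the tails of these receptors are shown because the transcript tables separate them. The Itgb1 gene ends in a common tail, A, or in a muscle tail, D, which is known from heart and skeletal muscle and arises when a further exon is spliced in before the last one. The coding part of each exon, read from the transcript sequences of the annotation (mm10, plus strand), is given 5′ to 3′, with the codons of the Asn-Pro-any-Tyr motif, the docking site of talin and kindlin, in capitals. The D exon is at chr8:128726983-128727054 and the coding part of the A exon at chr8:128732023-128732085.
Itgb1 D exon: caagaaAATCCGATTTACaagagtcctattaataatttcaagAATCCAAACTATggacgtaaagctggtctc
Itgb1 A exon: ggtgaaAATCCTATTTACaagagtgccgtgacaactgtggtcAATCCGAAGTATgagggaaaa
Both exons hold the motif at 2 places, and over the 63 bases of the A exon 41 (65.1%) are the same in the D exon without gaps. The only transcript with the D exon, Itgb1-204, is a fragment of 4 exons and 711 bases, whereas the main A transcript, Itgb1-201, has 16 exons and 3815 bases.

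The D transcript was at 34.02 and 24.88 TPM in the alignment-derived transcript table, beside 80.29 and 65.82 TPM for Itgb1-201. Of the TPM of both forms, D held 29.8% in replicate 1 and 27.4% in replicate 2. The FASTQ-derived table, a second quantification of the same libraries, gave 34.9% and 32.8%. In expected counts, which are not divided by length, the D transcript held 6.52% and 5.84%. The hearts differed by less than the tables. Reads upstream of the fragment can be assigned only to the A transcripts, so the D share rests on the last exons alone.

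Itga7 has 2 kinds of alternative exon. In its extracellular part either of a pair of neighbouring exons, known as X1 and X2, is used near the ligand-binding face. The X1 exon is at chr10:128941445-128941576 and the X2 exon at chr10:128941822-128941941 (mm10, plus strand). They are shown whole, with no capitals.
Itga7 X1 exon: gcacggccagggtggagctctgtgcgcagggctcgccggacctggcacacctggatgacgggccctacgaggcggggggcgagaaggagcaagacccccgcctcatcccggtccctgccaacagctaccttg
Itga7 X2 exon: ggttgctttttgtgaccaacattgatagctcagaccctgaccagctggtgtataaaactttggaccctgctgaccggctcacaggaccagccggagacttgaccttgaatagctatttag
The X1 exon has 132 bases and the X2 exon 120, so that either leaves the reading frame in place. The X2 transcript, Itga7-201, was at 44.01 and 35.45 TPM and the X1 transcript, Itga7-202, at 4.74 and 3.46 TPM. X2 held 90.3% and 91.1% of both in the alignment-derived table and 89.8% and 90.1% in the FASTQ-derived table. Tables and hearts differed little for this exon.

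In its cytoplasmic part Itga7 ends in a B tail, or in an A tail when a further exon is spliced in. Tails A and B also exist for Itga6 and Itga3, so the coding parts of the tail exons of Itga7 and Itga6 are set side by side. Capitals mark the codons of GFFKR, the membrane-proximal motif of integrin α tails.
Itga7 A exon: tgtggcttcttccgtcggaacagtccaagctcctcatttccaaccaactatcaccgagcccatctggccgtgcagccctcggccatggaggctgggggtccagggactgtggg
Itga7 B exon: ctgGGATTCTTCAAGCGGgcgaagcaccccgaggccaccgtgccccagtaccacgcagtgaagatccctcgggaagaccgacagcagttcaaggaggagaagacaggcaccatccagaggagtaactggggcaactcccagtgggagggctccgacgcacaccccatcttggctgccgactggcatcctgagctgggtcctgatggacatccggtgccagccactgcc
Itga6 A exon: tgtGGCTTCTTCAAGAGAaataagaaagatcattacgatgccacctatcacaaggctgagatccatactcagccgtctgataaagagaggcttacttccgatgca
Itga6 B exon: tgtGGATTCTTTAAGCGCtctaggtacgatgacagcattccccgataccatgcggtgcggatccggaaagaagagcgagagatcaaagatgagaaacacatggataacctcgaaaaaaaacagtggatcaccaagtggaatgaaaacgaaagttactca
These lie at chr10:128956611-128956723 and chr10:128957621-128957848 for Itga7 and at chr2:71853534-71853638 and chr2:71855854-71856012 for Itga6, all on the plus strand. The exact motif was found in 3 of the 4 and not in the Itga7 A exon.

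For the Itga7 tail the 2 quantifications differed. The only transcript with the A exon, the 984-base fragment Itga7-204, was at 16.28 and 15.24 TPM in the alignment-derived table but at 0.227 and 0 TPM in the FASTQ-derived table. The A share of both tails was accordingly 25.0% and 28.1% in the first and 0.47% and 0% in the second. The B tail held the rest in each case, with 48.75 and 38.91 TPM in the alignment-derived table and 48.1 and 40.1 TPM in the FASTQ-derived one. The level of the B tail thus differed little between tables, while an A share cannot be given from them.

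Both tails of Itga6 were present at like levels. Transcripts with the A exon held 47.7% and 53.1% of both forms in the alignment-derived table and 40.4% and 43.4% in the FASTQ-derived table. Most of the B form was Itga6-203, a processed transcript of 2721 bases and 3 exons, at 6.06 and 4.03 TPM, while the full-length B transcript Itga6-202 was at 1.80 and 1.19 TPM. Between full-length transcripts the A form, Itga6-201, was the higher at 6.90 and 5.61 TPM. For Itga3 the A form held 89.2% and 100% in the alignment-derived table and 87.1% and 100% in the FASTQ-derived table. The B transcript of Itga3 was thus assigned reads in replicate 1 only.

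**Figure D2:**
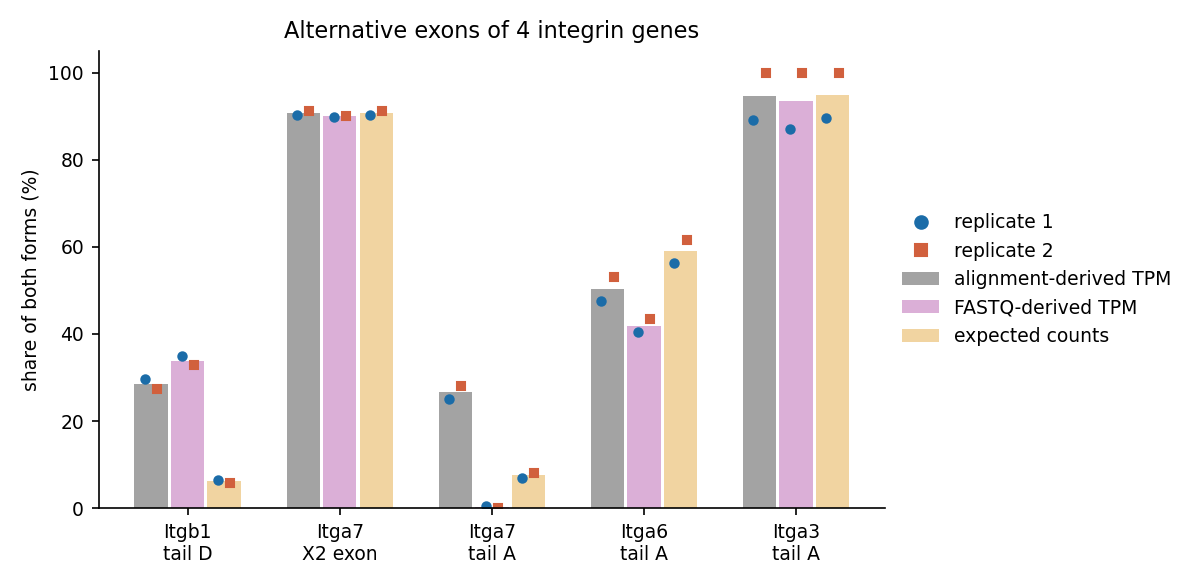
Share of the named exon form among both forms of the gene, in percent, for each heart (circles, replicate 1; squares, replicate 2) and as the mean (bars) in 2 transcript tables and in expected counts. The Itga7 X2 share is near 90% in all 3, whereas the Itga7 A tail ranges from 0% to 28.1% with the table.

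The most abundant isoform was the same in both transcript tables for 18 of the 22 expressed members, all of which have 2 or more transcripts, against 81.7% of such genes with a coding transcript. The exceptions were Lamb3, Itga6, Itgb4 and Itgb5.

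The leading transcript was full-length and held most of the alignment-derived TPM for Itga5 (Itga5-201, 94.1% and 93.5%), Lamb1 (Lamb1-201, 92.5% and 95.7%), Itga9 (Itga9-201, 95.3% and 86.4%), Itgb2 (Itgb2-201, 78.7% and 89.2%), Itga8 (Itga8-201, 76.6% and 53.8%), Lamc1 (Lamc1-201, 75.5% and 71.1%) and Lama4 (Lama4-201, 69.2% and 70.8%).

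Other members were split. Lama2-201 held 45.04% and 46.8% of Lama2 TPM, and the rest lay mainly in Lama2-204 and Lama2-206, which retain introns, and in the shorter coding Lama2-208. The FASTQ-derived table gave Lama2-201 77.0% and 76.6%. Itga1 was shared between the coding Itga1-201 (50.6% and 44.9%) and the intron-retaining Itga1-206 (43.0% and 46.7%). Itgb6 was shared between the coding transcripts Itgb6-202 (44.8% and 51.8%) and Itgb6-201 (45.8% and 39.8%). Itga2b-201 held 70.9% of Itga2b TPM in replicate 1 and 47.2% in replicate 2, with a 623-base noncoding transcript, Itga2b-207, at 25.6% and 47.2%. Of these 4 genes, Itga2b had the full-length share that differed most between the hearts.

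In 3 of the 4 members whose leading transcript changed with the table, the choice lay between coding transcripts. For Lamb3 the alignment-derived table put Lamb3-202 first (35.4% and 46.1%) and the other put Lamb3-209 first (77.4% and 56.1%). Itgb4 had no stable order: Itgb4-202 held 51.4% in replicate 1 and 19.3% in replicate 2, and Itgb4-210 held 48.6% and 0%. For Itgb5 the leading transcript was Itgb5-202 (63.4% and 50.1%) in the alignment-derived table and Itgb5-207 in the other (38.7% and 37.2%).

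Level differences of 2-fold or more between the tables in both hearts were found for 1 of 23 members compared, against 0.712% of genes. That member was Itga6, at 16.28 and 12.16 TPM in the gene table and 48.4 and 42.2 TPM in the FASTQ-derived table, where its range overlapped that of Itga7 (mean 44.9 TPM) and Itga7 no longer led. The difference lay in Itga6-205, a noncoding transcript of 443 bases and 2 exons that has 70 bases in common with the exons of Itga6-201. It was at 0.70 and 0.85 TPM in the alignment-derived table and at 33.3 and 30.6 TPM in the FASTQ-derived table. The tables thus differed on this transcript, and with transcripts under 1000 bases left out no member differed 2-fold.

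Short annotated transcripts also carried part of the level of several of the highest members, because TPM divides reads by length. Transcripts under 1000 bases held 43.6 ± 1.37% of Lamb2 TPM but 3.61% of its expected counts, mostly through Lamb2-206, a 345-base piece of the first 4 exons. They held 42.1 ± 4.56% of the TPM of Lama5, 52.9% of Itgav, 29.1% of Itgb1 and 27.6% of Itga7, for the last pair mainly through the D and A tail fragments. Over the 22 expressed members the median share was 18.4%, and over all expressed coding genes 10.1%. With only transcripts of 1000 bases or more, Lamb2 averaged 72.5 TPM, Itgb1 73.1 TPM and Itga7 44.0 TPM. These were again the 3 highest members, but the mean of Lamb2 no longer exceeded that of Itgb1.

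**Figure D3:**
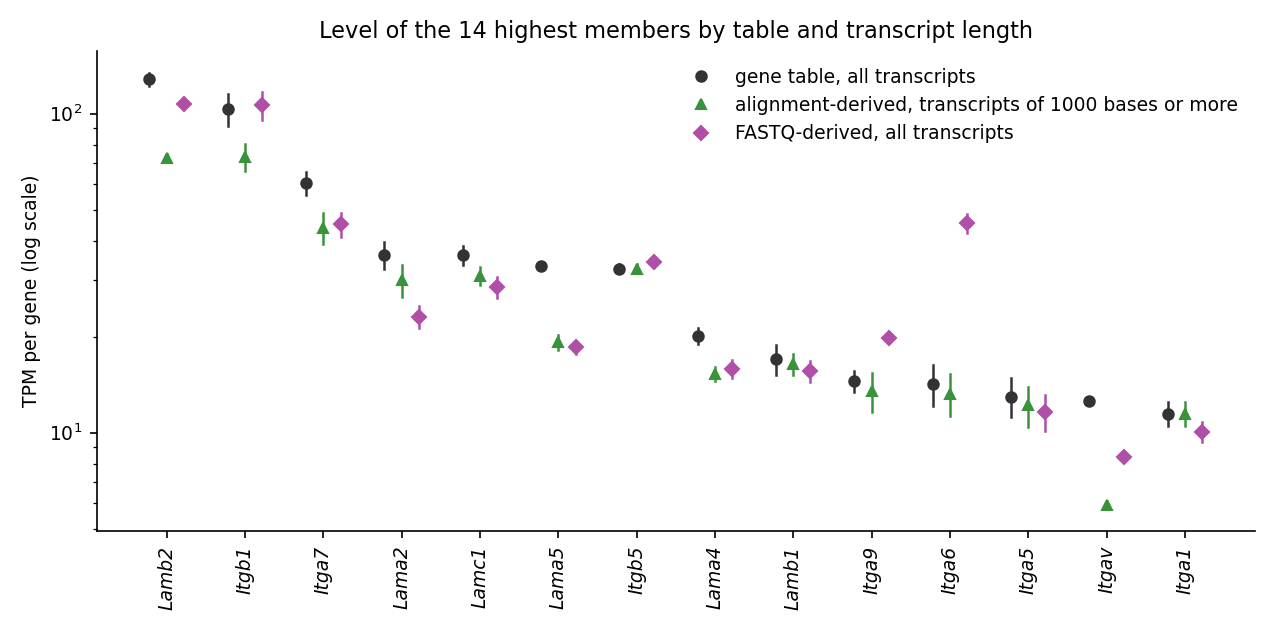
TPM on a log axis of the 14 members averaging 10 TPM or more, from the gene table (circles), from its transcripts of 1000 bases or more (triangles) and from the FASTQ-derived table (diamonds), as means with lines spanning the 2 hearts. Itga6 stands out at 45.3 TPM in the FASTQ-derived table, and Lamb2, Lama5 and Itgav are lower without short transcripts.

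Between the hearts no member differed 2-fold. With the difference taken as log2 of the ratio of replicate 2 to replicate 1 after adding 0.1 TPM, centred on the median gene, 0 of 23 members compared were 2-fold higher in replicate 2, against 0.429% of coding genes, and 0 were 2-fold lower, against 0.456%. Before centring the median gene was at -0.18. The members ran from -0.67 to 0.70, with 10 above 0, 13 below (50.4% of coding genes compared were below) and a median of -0.02. The deposited credibility bounds of the 2 libraries, which cover uncertainty within a library only, did not overlap for 9 of the 23, against 29.1% of coding genes. Among those farthest from 0 were Itga2b at -0.67, Itgb3 at -0.65 and Itga8 at 0.70, all of them members under 5 TPM.

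Of the 7 platelet marker genes, the 2 high enough to compare were both lower in replicate 2. Itga2b had 169 expected counts in replicate 1 and 67 in replicate 2, and its log2 difference was -0.67 in the gene table, -0.34 in the FASTQ-derived table, -1.11 by expected counts scaled to library size and -1.14 over transcripts of 1000 bases or more, the last pair past 2-fold. Over those longer transcripts, however, Itga2b averaged 0.955 TPM, under the 1 TPM required of genes compared between animals. The chemokine Ppbp was at 7.98 and 3.33 TPM (log2 difference -1.05), and Pf4 at 11.35 and 8.88 TPM (-0.17). The 5 others were under 1 TPM and none was at 0: Treml1 was at 0.29 and 0.14 TPM, Gp1ba at 0.20 and 0.09, Gp9 at 0.57 and 0.49 and Gp5 at 0.14 and 0.11. Gp1bb, the only marker with the higher TPM in replicate 2, was at 0.16 and 0.31 TPM on 5.3 and 10.45 expected counts. The 7 platelet markers summed to 20.7 and 13.4 TPM. Their part in the difference was not tested.

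The opposite difference of Itga8 depended on short transcripts. Without transcripts under 1000 bases its log2 difference was 0.12, and its expected counts were 167 and 179.

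**Figure D4:**
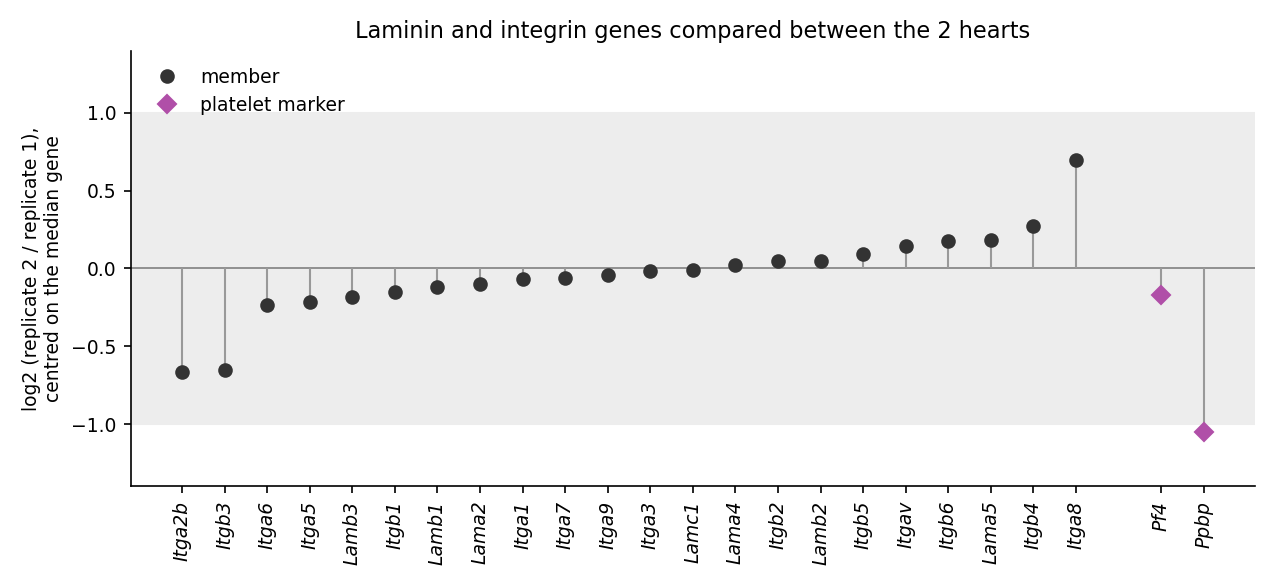
Centred log2 ratio of replicate 2 to replicate 1 for 22 of the 23 members compared (circles) and for Pf4 and Ppbp, the platelet markers high enough to compare (diamonds). The grey band spans 2-fold either way: every member drawn lies inside it, with Itga2b at -0.67 and Itga8 at 0.70 at the ends.

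The partners of laminins in basement membranes were broadly expressed. Of 15 genes listed, 12 were expressed, and the highest were Sparc, a collagen-binding matrix protein, at 109.64 and 86.16 TPM, Hspg2 (perlecan) at 74.43 and 58.52 TPM and Col4a1, a chain of the collagen IV network, at 63.93 and 41.91 TPM. Nid1, the nidogen that links laminin γ1 to collagen IV, was at 17.70 and 13.81 TPM. Col4a3 and Col4a6 were under 1 TPM in both hearts. Of 12 partners compared, 11 were lower in replicate 2 and 0 were 2-fold apart, with a median log2 difference of -0.16, while 50.4% of all coding genes compared were lower. Endothelial markers were lower in 5 of 6 cases, with a median of -0.18, and fibroblast markers in 5 of 6, with a median of -0.13, and their part in these differences was not tested.

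All 10 listed laminin receptors other than integrins were expressed, with a median of 57.1 ± 3.25 TPM. The highest was Rpsa, a ribosomal protein and laminin receptor with many near-identical pseudogenes, which makes its level uncertain, at 190.61 and 176.12 TPM. Dag1 (dystroglycan), the receptor for the α2 chain, was at 107.05 and 86.43 TPM, above Itga7 in both hearts. Bcam, the α5 chain receptor of vessels and blood cells, was at 72.50 and 67.17 TPM. None of the 10 was 2-fold apart between the hearts, against 0.429% of coding genes 2-fold higher in replicate 2 and 0.456% 2-fold lower.

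Of 20 other integrin ligands listed, 14 were expressed. The highest were Mfge8, an RGD ligand of αv integrins, at 52.65 and 42.50 TPM, Vwf (von Willebrand factor) at 40.29 and 35.41 TPM and Col3a1 at 23.73 and 18.45 TPM. Fn1 (fibronectin), the ligand of α5β1, was at 11.68 and 9.34 TPM. Tnc, Spp1, Npnt and Cdh1 were under 1 TPM in both hearts, and Ibsp and Madcam1 were at 0. Of 14 compared, 12 were lower in replicate 2, against 50.4% of all genes, with 0 past 2-fold and a median of -0.08.

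Of 32 genes listed as integrin tail adaptors, 28 were expressed, with a median of 24.8 ± 2.63 TPM. The highest in the list were the muscle proteins Actn2 (α-actinin of the Z disc) at 856.48 and 727.27 TPM and Csrp3 at 789.11 and 723.28 TPM, and Tns1 (tensin) at 269.6 and 230.89 TPM. RNA levels do not show how much of any of these proteins is at integrin tails. The talins Tln1 and Tln2 were at 35.34 and 33.90 TPM and at 32.04 and 26.93 TPM. Among the kindlins, Fermt2 was at 87.36 and 68.24 TPM and Fermt1, the epithelial kindlin, at 0 in both. Parvg, a parvin of blood cells, was also under 1 TPM in both hearts. Itgb1bp2 (melusin), a muscle protein that binds the β1 tail, was at 62.34 and 48.76 TPM. Of 29 compared, 21 were lower in replicate 2, against 50.4% of all genes, with 0 past 2-fold and a median of -0.06.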

How the data were processed

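Per the file headers, the deposited gene and transcript tables from alignments hold expected counts and TPM, with a posterior mean TPM and credibility bounds, and the FASTQ-derived tables hold estimated counts and TPM. Per the submitters' notes with the files the build is mm10 with GENCODE M21, and no aligner is named in the sources used here. The bounds of TPM, signal values as deposited by the authors, served only to count genes whose bounds did not overlap. Levels are the authors' TPM from the gene table. Genes compared between animals averaged at least 1 TPM and had at least 20 expected counts summed over both libraries, with 0.1 TPM added before log2. Tables were compared by summed transcript TPM per gene. Transcript and exon models, and sequences, came from GENCODE M21. The calculations used Python 3.11.15, pandas 2.3.3 and numpy 2.4.6, and the comparison of animals was tested on simulated data. Counts in the 2 libraries differed by far more than sampling noise (chi-square per degree of freedom 39.0 over 15299 genes), so they are not copies of each other. That difference cannot tell 2 animals from separate libraries of the same heart. The members and lists were chosen with earlier results of these data known. The rule names every member, and from each partner and marker list the 3 highest genes and those under 1 TPM in both hearts, apart from some genes that are not reported here but stay in the counts, medians and sums; other genes were named after their values were seen. Ranges settle an order only where they do not overlap.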

Additional observations from a re-analysis of the deposited data

How the results depend on the processing

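Members expressed numbered 22, and between 15 and 25 under every threshold, table and transcript choice tried. No paired analysis was possible because there was 1 group. In either heart alone the number was 22 or 23. Lamb2, Lamc1 and Itgb1 held the largest share of their kind under all settings, whereas Itga6 was level with Itga7 in the FASTQ-derived table and Lama5 was above Lama2 in expected counts. By the FASTQ-derived table the shares were 31.8% for Lama5, 27.1% for Lama4, 84.7% for Lamc1, 29.96% for Itga7 and 62.9% for the laminin-binding subunits. By expected counts they were 43.7% for Lama5, 17.3% for Lama4, 80.0% for Lamb2, 96.3% for Lamc1, 34.9% for Itga7 and 46.1% for the laminin-binding subunits. By posterior mean TPM Itga7 was at 43.1% and the laminin-binding subunits at 56.2%. Over protein-coding transcripts only, Lama5 was at 34.1%, Lama4 at 24.9%, Lamc1 at 95.5%, Itga7 at 50.3% and the laminin-binding subunits at 59.4%. Over transcripts of 1000 bases or more, a choice made after seeing the data, Lama2 was at 45.8%, Lama5 at 29.5%, Lama4 at 23.3%, Lamb2 at 79.2%, Lamc1 at 95.5%, Itga7 at 40.9%, Itgb1 at 62.4% and the laminin-binding subunits at 55.7%. By expected counts scaled to library size 1 member, Itga2b, was 2-fold apart between the hearts. Over all transcripts 3 members differed by 1.5-fold between the tables, and 0 differed by 2-fold over protein-coding transcripts or over those of 1000 bases or more. The lowest members rest on few counts, such as 2 and 4.41 for Itgad, and the exact sign-flip test cannot go below 0.5 with 2 animals.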

Other observations

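The netrins, secreted proteins with laminin-like domains, had 3 of 6 genes expressed. Ntn1 was at 24.22 and 26.62 TPM, Ntn4, a basement membrane netrin that binds laminin γ1, at 4.10 and 4.80 TPM and Ntng2 at 3.04 and 2.95 TPM, while Ntn3, Ntn5 and Ntng1 were under 1 TPM in both hearts. All 3 compared were above 0 in the centred log2 difference, by 0.32, 0.41 and 0.14. So were 5438 of the 10957 coding genes compared. None of the 3 was 2-fold apart, against 0.429% of coding genes 2-fold higher in replicate 2 and 0.456% 2-fold lower.

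The leukocyte genes Itgam, Itgax and Itgad lie next to each other on chromosome 7, with gaps of 11.1 kb and 3.72 kb, and all 3 were under 1 TPM. Itga2b and Itgb3, the platelet pair, lie 2138 kb apart on chromosome 11.

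Among the marker lists, the 3 highest cardiomyocyte genes were Myl2, Myh6 and Actc1, with Actc1 at 5435.89 and 3945.14 TPM. The 3 highest endothelial genes were Egfl7 (56.54 and 38.22 TPM), Pecam1 and Cdh5, and the 3 highest fibroblast genes Dcn (121.45 and 104.0 TPM), Col1a2 and Lum. The smooth muscle list was led by Smtn (47.02 and 38.08 TPM), Acta2 and Tagln, and the pericyte list by Abcc9 (98.56 and 82.62 TPM), Rgs5 and Pdgfrb. These are levels in the whole heart, and the part that comes from each named cell type was not tested. Among leukocyte genes Cd68 followed Lyz2 and Csf1r at 1.65 and 1.71 TPM, and Cd3e, Ly6g and S100a8 were under 1 TPM in both hearts. Of the epithelial and mesothelial genes Krt19 followed Upk3b and Msln at 1.72 and 1.94 TPM, and Krt14 and Krt8 were under 1 TPM in both. Schwann cell genes were led by Mbp (1.97 and 1.70 TPM), with Sox10 and S100b under 1 TPM in both.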
